A study of Mus musculus with 2 samples.

Results

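Mirlet7b, Mirlet7d, Mirlet7e, Mirlet7g, Mirlet7i and Mir98 are the mouse let-7 family genes whose symbols carry no copy number. They were taken by symbol through their Ensembl identifiers, and are 6 of 2202 microRNA genes in the count tables. The tables come from 2 microRNA-seq libraries of adrenal tissue, each from a male of the strain B6CASTF1/J, an F1 hybrid of C57BL/6J and CAST/EiJ, at an age of 36 days. The labels name no treatment, no engineered allele and no second condition. They number the animals separately, as 3 for replicate 1 and 4 for replicate 2, but give both the same donor record, and whether CAST/EiJ alleles change the counts was not tested.

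The let-7 microRNAs are among the most conserved in animals. They accumulate as cells differentiate and repress growth and fetal genes such as Hmga2, Lin28b and Ras family members, which they recognise mainly through the seed, bases 2 to 8 of the mature strand. The proteins LIN28A and LIN28B block maturation by binding the loop of let-7 precursors, where the letters GGAG are a known contact. All family members share the seed, so the genes differ in where they lie, how they are transcribed and in the bases outside the seed.

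The mature 5′ strands are shown because the shared seed, and the few bases outside it, decide which reads can be given to which gene. They are RefSeq entries (GRCm38.p6), with the seed in capitals, and all 6 genes were matched.
let-7b-5p: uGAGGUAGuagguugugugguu
let-7g-5p: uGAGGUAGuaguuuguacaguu
let-7i-5p: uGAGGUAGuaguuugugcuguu
let-7d-5p: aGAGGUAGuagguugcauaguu
let-7e-5p: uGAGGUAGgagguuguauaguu
miR-98-5p: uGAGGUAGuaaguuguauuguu
Each is 22 bases long, so levels are compared as reads with no scaling by length. For comparison, let-7a-5p, which is made from numbered copies, reads as follows.
let-7a-5p: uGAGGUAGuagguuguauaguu

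Positions in substitutions are counted from 1 at the 5′ end, with the let-7a-5p base first. Outside the seed, let-7b differs by A17G and A19G, let-7d by U1A and U16C, let-7e by U9G alone, let-7g by G12U and U18C, and miR-98 by G11A and A19U. let-7i has 4 substitutions, G12U, A17G, U18C and A19U, and shares G12U and U18C with let-7g. The closest pairs are a single base apart, let-7e with let-7a, and let-7b with let-7c (G17A, with the let-7b base first). Each of the 6 mature 5′ strands, and each of the 6 mature 3′ strands, occurs at 1 locus in the RefSeq table. Within that table a read of such a strand has 1 exact source, but the genome itself was not searched. How many mismatches the authors' mapping allowed is not given in the sources used here. This seed is found in mature strands of 13 genes among the RefSeq entries. Mirlet7a-2, a numbered let-7a copy with 886 and 350 counts in replicates 1 and 2, is not among them, so the list is not complete. Of the 7 that are not described here, Mir7k had 2 and 3 counts and Mir1961 had 1 and 1 count in replicates 1 and 2, and the other 5 are numbered let-7 copies.

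The hairpins are shown because the GGAG letters lie between the mature arms of only some of these genes. Capitals mark GGAG between the 2 arms, searched on the transcribed strand only.
Mirlet7b: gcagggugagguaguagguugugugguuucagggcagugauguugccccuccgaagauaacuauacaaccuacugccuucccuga
Mirlet7g: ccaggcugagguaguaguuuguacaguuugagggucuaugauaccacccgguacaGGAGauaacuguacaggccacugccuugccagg
Mirlet7i: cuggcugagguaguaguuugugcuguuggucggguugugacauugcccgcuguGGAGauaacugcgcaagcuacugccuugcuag
Mirlet7d: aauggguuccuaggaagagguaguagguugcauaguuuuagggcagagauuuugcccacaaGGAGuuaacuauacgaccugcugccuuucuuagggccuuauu
Mirlet7e: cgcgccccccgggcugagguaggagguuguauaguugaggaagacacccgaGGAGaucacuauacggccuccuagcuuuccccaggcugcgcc
Mir98: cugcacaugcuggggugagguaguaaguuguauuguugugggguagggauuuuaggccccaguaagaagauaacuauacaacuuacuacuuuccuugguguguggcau
Mirlet7g, Mirlet7i, Mirlet7d and Mirlet7e held GGAG between the arms, while Mirlet7b and Mir98 did not. Mirlet7e held another GGAG within its 5′ strand. For scale, 447 of 1005 hairpins in the RefSeq table (44.5%) hold GGAG anywhere. The genes without GGAG between the arms were the highest and the lowest of the 6 in level.

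In mm10, Mirlet7b (ENSMUSG00000065564.1, chr15:85707319-85707403, plus strand) overlaps an exon of the noncoding transcript Lncppara. Mirlet7d (ENSMUSG00000065453.1, chr13:48536012-48536114, minus strand) lies in an exon of the long noncoding RNA 6720427I07Rik. Mirlet7i (ENSMUSG00000065406.3, chr10:122985640-122985724, minus strand) overlaps an exon of 1 of 2 transcripts of the transcribed pseudogene D630033A02Rik. The other genes lie within introns of coding genes on the same strand. Mirlet7g (ENSMUSG00000065440.1, chr9:106178840-106178927) is in Wdr82, a subunit of histone H3 lysine methyltransferase complexes. Mirlet7e (ENSMUSG00000105758.1, chr17:17830352-17830444) is in Spaca6, known for a sperm protein needed for fertilisation. Mir98 (ENSMUSG00000065536.2, chrX:151913214-151913321) is in Huwe1, a ubiquitin ligase.

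The gene counts came to 4494857 in replicate 1 and 2078824 in replicate 2, from 12289288 and 10323816 reads. Unmapped reads took 26.4% and 51.9%, and reads mapping to several places 29.8% and 21.5%. The libraries also differed in markers of other cell types, given as summed CPM (counts scaled to a library total of 1000000 gene counts) in replicates 1 and 2. The 3 erythroid genes summed to 15841 and 1091 CPM, the 5 epithelial miR-200 genes to 64.7 and 3576 CPM, and the 3 pancreas acinar genes to 0 and 326 CPM. In replicate 1 all 3 acinar genes were at 0 counts, where up to 3 counts cannot be told from 0. The endothelial pair summed to 74842 and 64797 CPM and the 4 neuroendocrine genes, the list closest to chromaffin cells, to 48802 and 54157 CPM. Most of the neuroendocrine sum was Mir375, at 44147 and 51780 CPM. Mir7b, Mir7-1 and Mir7-2 were lower in replicate 2, with log2 ratios of -1.21, -0.69 and -0.40 (replicate 2 over replicate 1, TMM scaling). Smooth muscle and pericyte genes (2) summed to 46611 and 30221 CPM, the liver gene Mir122 to 1383 and 2842 CPM, and leukocyte genes (4) to 1740 and 1891 CPM. These 2 lists also held genes going opposite ways. Mir143 was at a log2 ratio of -0.97 and Mir145a at 1.17. Mir150 was at 0.40, while Mir142, Mir155 and Mir223 were at -0.52, -0.56 and -0.56. Of 7 neuronal genes 5 were at 0 in both libraries, with sums of 776 and 339 CPM. Nearly all of these sums was Mir137, with 3483 of 3486 counts in replicate 1 and 705 of 705 in replicate 2. The genes at 0 are numbered copies of Mir124a and Mir9. Reads mapping to several places are not in the counts, so these zeros need not mean absence. No microRNA in these lists defines the adrenal cortex. The part of these differences in the results that follow was not tested, and in whole tissue fewer cells of a type and less RNA per cell cannot be told apart.

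In the gene counts, Mirlet7b was the highest of all 2202 genes in both libraries, and the 6 genes fell in the same order in each. Reads mapping to several places are not in these counts. Ranks and shares over all genes therefore hold for reads with 1 place in the genome, and genes with several copies may be undercounted. Mirlet7b had 378009 counts in replicate 1 and 377660 in replicate 2, or 84098 and 181670 CPM. Its count was nearly equal although replicate 2 had far fewer gene counts, so its share was larger there. Its share of all gene counts was 8.41% in replicate 1, with an exact Clopper-Pearson interval (95%) from 8.38% to 8.44%. The share in replicate 2 was 18.2%, with an interval from 18.1% to 18.2%. The mean was 132884 ± 68994 CPM (SD, n = 2), a spread of 51.9% of the mean. These intervals cover counting error only, and copies of a molecule made by PCR may have been counted as separate reads.

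Mirlet7g had 360839 and 132738 counts, or 80278 and 63852 CPM, with a mean of 72065 ± 11615 CPM (SD, n = 2). It ranked 2 of all genes in replicate 1 and 4 in replicate 2. Mirlet7i had 199134 and 73084 counts, or 44303 and 35156 CPM, with a mean of 39730 ± 6467 CPM. It ranked 7 and 6. Both were lower in CPM in replicate 2, by similar proportions.

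Mirlet7d had 103119 and 61282 counts, or 22942 and 29479 CPM, with a mean of 26210 ± 4623 CPM (SD, n = 2) and ranks of 13 and 7. Mirlet7e had 46415 and 36583 counts, or 10326 and 17598 CPM, with a mean of 13962 ± 5142 CPM and ranks of 21 and 12. Both were higher in CPM in replicate 2. Mir98 had 16441 and 7037 counts, or 3658 and 3385 CPM, with a mean of 3521 ± 193 CPM and ranks of 41 and 42. In CPM its SD was 5.47% of its mean, against 16.1% to 51.9% for the other 5 genes.

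This ranking of the spreads depends on the total. Per 1000000 reads of all kinds, unmapped and multimapping reads included, the SD was 4.51% of the mean for Mirlet7e, 12.2% for Mirlet7b, 24.2% for Mirlet7d, 46.0% for Mir98, 55.3% for Mirlet7g and 55.4% for Mirlet7i. On that scale Mirlet7b had 30759 and 36581 reads in replicates 1 and 2, and Mirlet7e had 3777 and 3544. Mirlet7g had 29362 and 12858, Mirlet7i 16204 and 7079, Mirlet7d 8391 and 5936, and Mir98 1338 and 682. All of the 6 but Mirlet7b were then lower in replicate 2, the library with the larger unmapped share, so the directions of Mirlet7d and Mirlet7e turned.

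**Figure D1:**
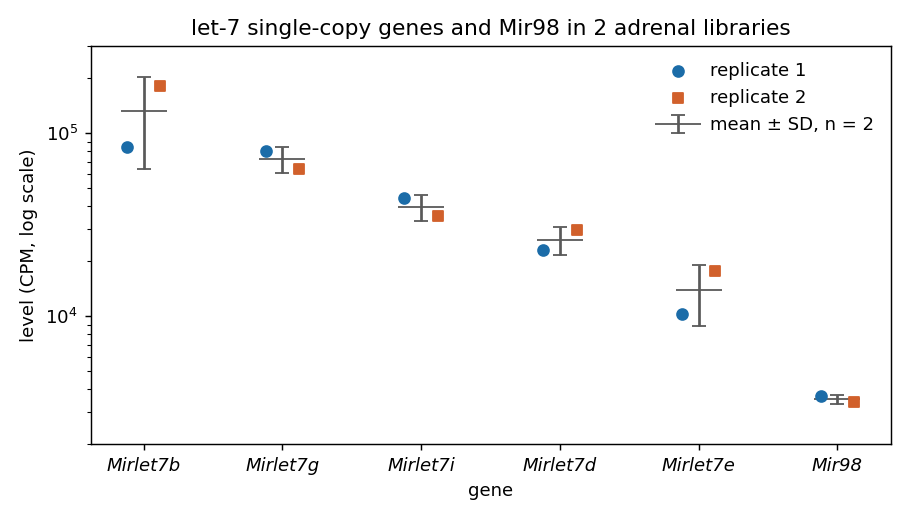
Level of each gene in CPM (vertical axis, log scale) in replicate 1 (circles) and replicate 2 (squares), with the mean and SD over the 2 libraries. The order from Mirlet7b down to Mir98 is the same in both libraries, and Mirlet7b shows the widest gap, 84098 against 181670 CPM.

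Of the 5 neighbouring pairs in this order, 4 were apart in CPM by more than the sum of their SDs and the first was not. Per 1000000 reads of all kinds only 2 were, Mirlet7d with Mirlet7e and Mirlet7e with Mir98. Mirlet7g and Mirlet7i then differed by 9468 against 18123, and Mirlet7i and Mirlet7d by 4478 against 8188. Both genes of a pair come from the same libraries, so a change shared by both widens both SDs and counts against separation. The order and the ratios within a library are the same for either total. Mirlet7g over Mirlet7i was 1.81-fold in replicate 1 and 1.82-fold in replicate 2. Mirlet7b and Mirlet7g differed by 60819 CPM in the mean, under the sum of their SDs of 80609 CPM. In replicate 1 Mirlet7b stood only 1.05-fold above Mirlet7g, and in replicate 2 it stood 2.85-fold above. Mirlet7i over Mirlet7d was 1.93-fold and 1.19-fold, Mirlet7d over Mirlet7e 2.22-fold and 1.68-fold, and Mirlet7e over Mir98 2.82-fold and 5.20-fold in replicates 1 and 2. An exact permutation test between genes with 2 libraries each has 0.33 as its smallest two-sided p, so these differences were set against the SDs.

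Summed, the 6 genes made up 24.6% of the gene counts of replicate 1, with an exact 95% interval from 24.5% to 24.6%. They made up 33.1% of the gene counts of replicate 2, with an interval from 33.1% to 33.2%. The mean was 28.8% ± 6.05 (SD, n = 2). Most of that spread in CPM was Mirlet7b. Without it the other 5 genes took 16.2% and 14.9%, a mean of 15.5% ± 0.851. The numbered copies of let-7a, let-7c and let-7f, also 6 genes, summed to 0.741% and 0.747%, so the single-copy genes held 97.1% and 97.8% of the let-7 counts. The counts leave out reads with more than 1 place in the genome, and mature let-7a, let-7c and let-7f are each made from more than 1 locus. The split between the groups therefore describes reads with 1 place in the genome and not the amounts of mature let-7.

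Within the 6 genes, Mirlet7b made up 34.2% of the counts in replicate 1 and 54.9% in replicate 2. Mirlet7g went from 32.7% to 19.3% and Mirlet7i from 18.0% to 10.6%. Mirlet7d stood at 9.34% and 8.90%, Mirlet7e at 4.20% and 5.31%, and Mir98 at 1.49% and 1.02%. Replicate 1 thus held Mirlet7b and Mirlet7g in near-equal shares, while in replicate 2 Mirlet7b exceeded the other 5 together.

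**Figure D2:**
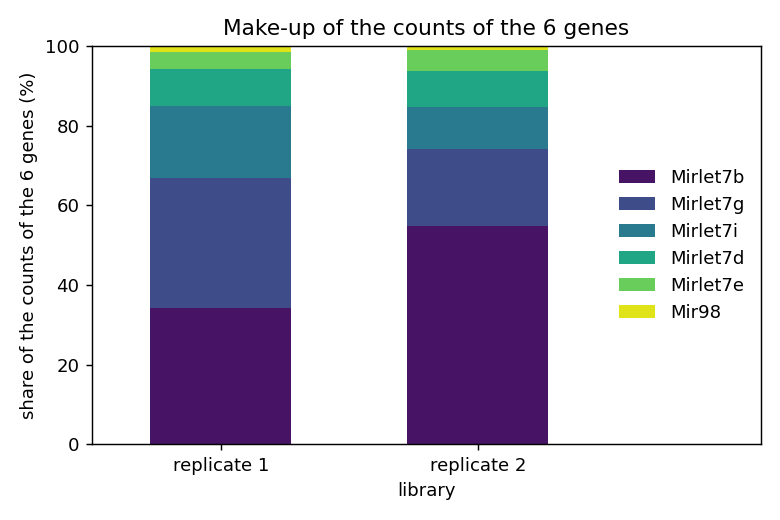
Share of the summed counts of the 6 genes (vertical axis, percent) taken by each gene in replicates 1 and 2, stacked from the highest gene at the bottom. Mirlet7b widens from 34.2% to 54.9%, Mirlet7g and Mirlet7i narrow, and the other 3 bands change less.

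Between the libraries, Mirlet7g, Mirlet7i and Mir98 were higher in replicate 1, Mirlet7b, Mirlet7e and Mirlet7d were higher in replicate 2, and none of the 6 differed by over 2-fold after TMM scaling. Ratios are replicate 2 over replicate 1 after TMM scaling (edgeR), on the log2 scale. Mirlet7b was 1.90-fold higher in replicate 2 (log2 ratio 0.93, counting interval 0.92 to 0.93) and Mirlet7e 1.50-fold higher (0.58, 0.56 to 0.60). Mirlet7d stood at a log2 ratio of 0.18 (0.16 to 0.19), but at -0.08 with DESeq2 median-ratio scaling and at 0.01 with TMM over all genes, so its direction follows the scaling. Mirlet7i was 1.43-fold higher in replicate 1 (-0.52, -0.53 to -0.51), as was Mirlet7g (-0.52, -0.52 to -0.51), and Mir98 was 1.23-fold higher there (-0.30, -0.34 to -0.26). The median of the 6 log2 ratios was -0.06, and that of all tested genes, the 333 that reached 10 counts in each library, was 0.01.

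A two-sided exact binomial test against counting noise, with Benjamini-Hochberg adjustment over those 333 genes, called all 6 genes. It also called 260 of the 333 genes (78.1%), 129 higher in replicate 1 (38.7%) and 131 higher in replicate 2 (39.3%), so a call says little about a single gene. With DESeq2 scaling the split was 157 and 97, and the median gene shifted by -0.26. With library size alone the median shifted by 0.19. The adjusted p was 5.18e-48 for Mir98 and 4.96e-125 for Mirlet7d, and at most 7.09e-300 for the other 4. After TMM scaling 0 of the 6 genes and 91 of the 333 (27.3%) were more than 2-fold apart. With library size alone these counts were 1, Mirlet7b at a log2 ratio of 1.11, and 102. The edgeR exact test, which takes its common dispersion from the same 2 libraries (a biological coefficient of variation of 52.7%), called 0 of the 6 (adjusted p from 0.988, also 0 at an unadjusted p under 0.05) and 2 of 333 (0.601%). For that dispersion both libraries were put in 1 group, so the difference under test is itself part of the error. Few calls could be made that way, and the 0 says little about the 6 genes. Either test compares 2 libraries, not conditions, and there is no replicate check on a difference between them.

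**Figure D3:**
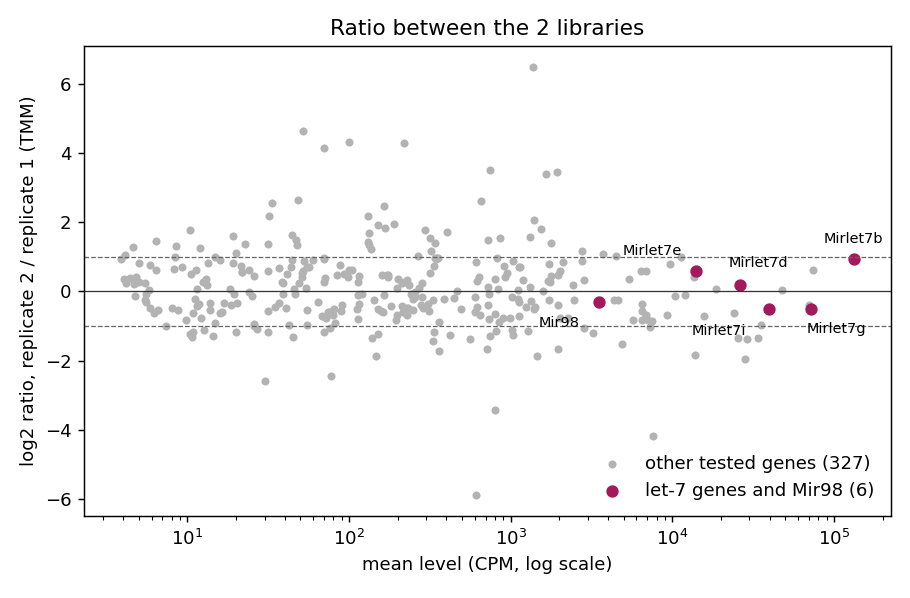
Log2 ratio of replicate 2 over replicate 1 after TMM scaling (vertical axis) against mean level in CPM (horizontal axis, log scale) for 333 genes, with dashed lines at 2-fold. At this scaling the 6 let-7 genes lie at the high end of the levels and within the 2-fold lines, from -0.52 to 0.93, while all genes range from -5.88 to 6.47.

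Ratios between genes of the same library do not depend on the library total. Mirlet7g over Mirlet7i was 1.81 in replicate 1 (counting interval 1.80 to 1.82) and 1.82 in replicate 2 (1.80 to 1.83), a change of 0.003 on the log2 scale. The genes lie on different chromosomes. Among the 15 pairs of the 6 genes this was the only one to change by less than 0.1, and the pair was singled out after its value was seen. The median change over the 15 pairs was 0.70, and the highest was 1.44 for Mirlet7b with Mirlet7i and likewise with Mirlet7g. The median over all 55278 pairs of tested genes was 0.95, and 5.86% of them changed by less than 0.1. Those pairs include genes with few counts and were not matched for depth. Mirlet7g and Mirlet7i also share substitutions G12U and U18C, which the other 4 lack.

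Neighbours within 10 kb on the same strand, which may be cut from a common primary transcript, were compared with 4 of the genes. Mirlet7g and Mirlet7i have no tested neighbour in that range. Of the 6 pairs with a neighbour, 3 kept their ratio to within 0.1 on the log2 scale, against 31 of 366 such pairs among all tested genes (8.47%). Tested genes needed only 10 counts in each library, where counting error alone can exceed 0.1. The 366 pairs were not matched for depth, so the 2 shares cannot be compared directly. Mirlet7e stood 2.18-fold above Mir125a in both libraries (counting intervals 2.15 to 2.22 and 2.14 to 2.22). Mir125a, whose lin-4 type seed differs from that of let-7, had 4733 and 8070 CPM and a log2 ratio of 0.58, as Mirlet7e did. Mir99b, 95 bases upstream of Mirlet7e, went the other way, from 8023 to 5734 CPM (log2 ratio -0.67). Mirlet7e over Mir99b accordingly moved from 1.29 to 3.07, although the 3 genes are annotated on 1 strand in Spaca6.

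Mir98 lies 786 bases downstream of Mirlet7f-2 and stood at 0.821 of its count in replicate 1 (0.804 to 0.838) and 0.799 in replicate 2 (0.774 to 0.825). Mirlet7f-2 had 4456 and 4236 CPM. Mirlet7d was 95.4-fold (89.8 to 101) and 90.7-fold (84.0 to 97.9) above Mirlet7f-1, but 69.9-fold and 102-fold above Mirlet7a-1. Mirlet7b was 57.1-fold above Mirlet7c-2 in replicate 1 and 107-fold in replicate 2. After TMM scaling Mirlet7c-2 barely moved between the libraries (log2 ratio 0.02, adjusted p = 0.590 in the exact binomial test), unlike Mirlet7b. That near-zero value depends on the scaling, as its CPM were 1472 in replicate 1 and 1694 in replicate 2. Reads shared among copies are missing from the counts of all the numbered genes, so these folds are not ratios of transcripts.

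**Figure D4:**
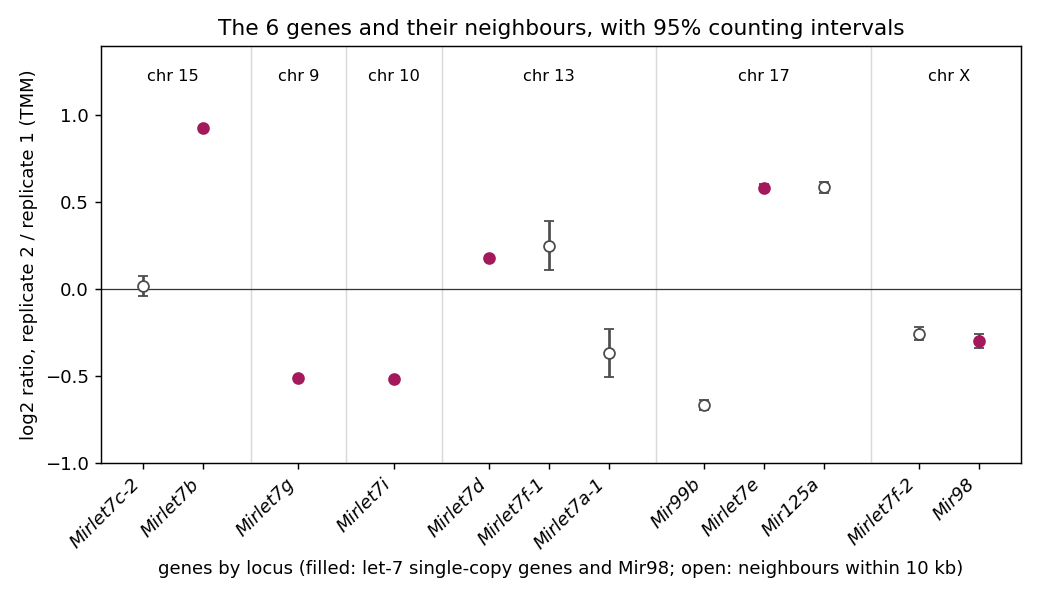
Log2 ratio of replicate 2 over replicate 1 (vertical axis) for the 6 genes (filled) and their neighbours within 10 kb (open), by locus, with 95% counting intervals. Mirlet7e and Mir125a both lie at 0.58 while Mir99b is at -0.67, and Mirlet7g and Mirlet7i on different chromosomes both lie at -0.52.

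Across the let-7 cluster partners, the miR-99/100 and miR-125 genes often found beside let-7 genes, the exact binomial test called 4 of 6 higher in replicate 1 and 1 higher in replicate 2. A share of 78.1% of all tested genes was called, so neither this count nor that of the numbered copies stands apart as a result. Their median log2 ratio was -0.58, from -1.05 for Mir100 to 0.58 for Mir125a. Of the 6 numbered let-7 copies 3 were called higher in replicate 1 and 1 higher in replicate 2, with a median of -0.17. Mir202, a gonad-enriched microRNA related to let-7, had 73 and 56 counts and was not called (log2 ratio 0.54, adjusted p = 0.0520).

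Base composition differed among the 6 genes. The mature strands held 10 G or C bases in let-7b, 9 in let-7d, let-7e and let-7i, 8 in let-7g and 7 in miR-98. Hairpin GC content ran from 44.4% in Mir98 and 44.7% in Mirlet7d to 62.4% in Mirlet7e. Over the 333 genes the log2 ratio rose by 0.27 for each 10 percentage points of hairpin GC, as a linear fit. With that trend removed the 6 genes kept their directions, with Mirlet7b at 0.91, Mirlet7d at 0.34, Mirlet7e at 0.28, Mirlet7g at -0.55, Mirlet7i at -0.60 and Mir98 at -0.12.

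Strand mattered for Mirlet7e. Its 46415 and 36583 reads were on the annotated strand, and Gm25927, a microRNA gene annotated on the opposite strand over the same bases, had 0 sense counts in both libraries. In the column that ignores strand, reads in the overlap count as ambiguous, and Mirlet7e is listed at 0 there. None of the other 5 is overlapped by an opposite-strand microRNA gene, and their counts in the strand-blind column differed by at most 8.

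The genes outside the let-7 family with levels most like each of the 6 were found by the distance of log2 CPM over the 2 libraries, among 321 candidates. With only 2 libraries such likeness is a likeness of level. Mir93 was closest to Mir98 (distance 0.06), at 3689 and 3259 CPM. The endothelial microRNA Mir126a was closest to Mirlet7g (0.10), at 74830 and 64786 CPM, and Mir30d was closest to Mirlet7e (0.13), at 10791 and 16325 CPM. Mirlet7i was nearest to Mir143 (0.42) and Mirlet7d to Mir139 (0.60). Mirlet7b had no close match, with Mir378a nearest (1.14) at 53937 and 94373 CPM. The next genes in line were Mir126a for Mirlet7b (1.50), Mir378a for Mirlet7g (0.80), Mir375 for Mirlet7i (0.56), Mir127 for Mirlet7d (0.70), Mir10b for Mirlet7e (0.56) and Mir541 for Mir98 (0.54).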

How the data were processed

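For each library the authors deposited raw counts of reads by microRNA gene, unscaled, with strand ignored in one column and each strand in a column of its own. Build mm10 and annotation M21 are named in the accompanying deposited text. Which aligner and counter were used is not given in the sources used here. The labels number the libraries as biological replicates but share a donor record, so the spread may be partly technical. All 2202 identifiers matched GENCODE M21. The sense column was used, without lines that name no gene (unmapped, multimapping, outside genes; 26.4%, 29.8% and 7.16% of reads in replicate 1 and 51.9%, 21.5% and 6.46% in replicate 2). CPM is a count scaled to a gene total of 1000000. A count of 0 allows up to 3 counts, or 0.667 and 1.44 CPM.

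TMM factors (0.938 and 1.07) were computed on the 333 genes reaching 10 counts in each library, across which the exact binomial test was adjusted at 0.05. p-values under 1e-300 were written as 1e-300 before adjustment. The binomial test was first tried on simulated counts with counting noise only, scaled by the genes left unchanged and not by TMM. Those counts lacked the spread between the real libraries, so the trial cannot show how the test behaves on them. The libraries differed by more than sampling noise allows (chi-square of 506250 on 332 degrees of freedom) and were kept as 2 replicates.

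The 6 genes, the related lists and the tests were chosen with earlier results of these data known. Named genes were the 6, the other let-7 genes, genes with the let-7 seed, neighbours within 10 kb, the miR-99/100 and miR-125 genes, Mir202, and the 2 genes nearest in level to each. Alternatives covered the scaling, count minimum, column, total, test and GC content, with TMM over all genes added after seeing the data. Sequences are from RefSeq, GRCm38.p6, whose positions and hairpins equal those of GENCODE for the 6 genes. Software was R 4.3.3, edgeR 4.0.16, DESeq2 1.42.0, Python 3.11.15, pandas 2.3.3, NumPy 2.4.6, SciPy 1.17.1 and matplotlib 3.10.9.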

Additional observations from a re-analysis of the deposited data

Results flagged for a closer look

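Reads on the strand opposite Mirlet7b numbered 8 in replicate 1 and 6 in replicate 2, above the 3 counts that cannot be told from 0. No microRNA gene is annotated there, and the sense strand held 378009 and 377660 counts. The other 5 genes had 0 such reads in both libraries.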

How the results depend on the processing

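No paired analysis was possible because the labels give 1 group. The summed share of the 6 genes was 17.9% ± 0.447 with Mirlet7b left out of the genes and the total, 7.83% ± 1.64 of all reads, and 24.6% to 33.1% with 1 library alone. Mean levels per 1000000 reads of all kinds were over 3 times lower than CPM. The factor differed by library, as gene counts were 36.6% of reads in replicate 1 and 20.1% in replicate 2. On that scale 2 in place of 4 of 5 neighbouring pairs exceeded their summed SDs. The order and the ratios within each library are the same for either total. The order of the 6 genes was the same in each library alone, while in the strand-blind column Mirlet7e, listed at 0, fell behind Mir98. The binomial test called 5 or 6 of the genes under the scaling, count minimum and GC alternatives, and all 5 that could be tested in the strand-blind column. The edgeR exact test, whose error holds the difference between the 2 libraries, called 0. After TMM scaling 0 were over 2-fold apart, against 1 (Mirlet7b) with library size alone. Over all tested genes the binomial test called 260 and the edgeR exact test 2, with 17 at an unadjusted p under 0.05. The log2 ratio of Mirlet7d, 0.18 with TMM, reversed to -0.080 with DESeq2 median-ratio scaling and was 0.01 with TMM over all genes or without a count minimum. Over the scaling, count minimum, column, test and GC settings the log2 ratio of Mirlet7b ran from 0.67 to 1.11. The ranges were 0.28 to 0.77 for Mirlet7e, -0.77 to -0.33 for Mirlet7g, -0.78 to -0.33 for Mirlet7i and -0.55 to -0.11 for Mir98. These ranges leave out the total of all reads. Per 1000000 reads of all kinds Mirlet7b rose less (30759 and 36581) and Mirlet7e turned (3777 and 3544). On that scale Mirlet7g (29362 and 12858) and Mirlet7i (16204 and 7079) were over 2-fold lower in replicate 2. Against TMM, library size alone shifted the median gene by 0.19 and DESeq2 scaling by -0.26, from the scaling itself. Counting error is small at this depth, and 2 libraries limit the precision.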
